A study of Mus musculus with 2 samples.

Results

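Levels of 10 imprinted growth-control genes were measured by single-cell RNA sequencing (10x 3′ libraries) of whole E11.5 mouse hearts: Dlk1, Cdkn1c, Peg3, Mest, Grb10, Ndn, Plagl1, Phlda2, Peg10 and Nnat. They were taken by name, by matching Ensembl mouse gene IDs to symbols, and were 10 of 22401 features counted in both libraries. The set was chosen by imprinting together with genotype differences in level already seen in these same libraries, that of Dlk1 in endothelial cells among them, so every genotype ratio of a member below is a description and carries no test.

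The study compared 2 libraries, 1 per genotype, which the submitters called Control and H2CKO. Control hearts had the genotype Hand2fx/+R26RmTmG/wt, that is 1 floxed Hand2 allele and no Cre. H2CKO hearts had the genotype Nfatc1Cre/wtHand2fx/fxR26RmTmG/wt, that is Nfatc1-Cre and floxed Hand2 alleles on both chromosomes, and the comparison addresses the role of HAND2, a basic helix-loop-helix transcription factor, in the endocardium. The Nfatc1-driven Cre is active in endocardial cells, which line the inside of the heart, and its mark passes on to cells that leave them for the cushion mesenchyme. A single mTmG reporter copy in each genotype labels membranes with GFP once Cre has acted and with Tomato otherwise. The number and the sex of the embryos behind each library are not given, and no agent was applied. Embryos waited on ice for approximately 3 hours before dissociation. With 1 library per genotype there is no replicate check: every difference is between these libraries, and genotype, embryo and preparation cannot be told apart.

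An imprinted gene is read mainly from the copy inherited from one parent, by way of a DNA methylation mark set in the germ line. Many genes of this kind act on growth before birth, and those read from the paternal copy tend to favour growth while those read from the maternal copy tend to hold it back. Of the members, Cdkn1c, Grb10 and Phlda2 are known for maternal expression and the others for paternal expression, with Grb10 read from the paternal copy in neurons. UMI counts do not tell the alleles apart, so all levels are sums over both copies.

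After filtering, 8921 Control cells and 11533 H2CKO cells remained, with medians of 16250 and 13432 unique molecular identifiers (UMIs, each counting 1 captured transcript) per cell. The 2 matrices shared 57 barcode sequences, 29 of them among kept cells. Clustering without the members gave 13 clusters, which held endothelial-like cells (384 Control, 749 H2CKO), cardiomyocyte-like cells (2925 and 3811), mesenchymal-like cells (1613 and 1076), epicardial-like cells (828 and 307), erythroid-like cells (2714 and 4990) and an unnamed cluster 9 led by Rspo3, Masp1, Sln and Sema3c (384 and 496). All 18 endothelial markers were detected in the endothelial-like cells of both libraries, with summed levels of 5364 and 5299 CPM. The erythroid-like cells were split by library, clusters 2 and 3 holding 2399 and 2124 H2CKO cells beside 42 and 41 Control cells. Of the cardiomyocyte-like cells, the shallow cluster 4 (median 1575 UMIs) held 1158 in Control and 250 in H2CKO, and cluster 0 held 1559 and 3372. Levels are counts per 1000000 (CPM), a gene's UMIs in a class of 1 library scaled by that library's total for the class, with 95% exact Poisson intervals that cover counting error only and not the spread between cells or embryos. Since 3′ counting does not depend on transcript length in a simple way, levels are compared between cells and not between genes.

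The targeted gene checked the labels. Hand2 was at 227 CPM in Control endothelial-like cells and 11.2 CPM in H2CKO, and GFP was at 16.8 and 1184 CPM, Hand2 lower and GFP higher in H2CKO; a 3′ count may still include transcript of a deleted allele. GFP was also at 800.1 CPM in H2CKO mesenchymal-like cells against 14.8 CPM in Control. In cardiomyocyte-like cells GFP was at 9.64 CPM in Control and 10.2 CPM in H2CKO. Tomato was lower in H2CKO in all 6 classes, at 21.3 and 2.64 CPM in endothelial-like cells, but also at 16.4 and 4.41 CPM in cardiomyocyte-like and 21.9 and 6.27 CPM in epicardial-like cells.

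Genotype differences are given as the log2 ratio of CPM plus 5, H2CKO over Control, for genes that reached 20 CPM and 20 UMIs in whichever library was higher. A gene was called past 2-fold at a log2 ratio of 1 or more in size. The median log2 ratio over all tested genes was below 0 in each class, at -0.28 in endothelial-like cells, -0.16 in cardiomyocyte-like cells, -0.24 in mesenchymal-like cells, -0.21 in epicardial-like cells and -0.18 in both erythroid-like cells and cluster 9. A member's ratio is best read against that shift.

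Dlk1, which encodes a transmembrane protein of the Delta-like family that lacks the domain needed to activate Notch in the usual way, was the member that differed most between the genotypes in endothelial-like cells. It was measured at 75.6 CPM (487 UMIs, interval 69.1 to 82.7) in Control and at 14.6 CPM (138 UMIs, interval 12.2 to 17.2) in H2CKO. Control thus stood 5.19-fold higher (exact interval 4.29 to 6.32), a log2 ratio of -2.04, or -1.76 relative to the median gene. Among the 6547 genes tested in these cells, 24 had a ratio as low or lower, Dlk1 included.

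Dlk1 was not lower in H2CKO in epicardial-like cells, mesenchymal-like cells and cluster 9, and it was lower at low levels in cardiomyocyte- and erythroid-like cells. Epicardial-like cells, which cover the heart, had the highest Dlk1 level in both libraries, at 218.8 CPM in Control and 241 CPM in H2CKO, a log2 ratio of 0.14. Cluster 9 came next, at 81.9 and 118 CPM, a log2 ratio of 0.50. Mesenchymal-like cells were at 6.85 and 7.42 CPM and cardiomyocyte-like cells at 5.64 and 2.47 CPM, below the minimum for a ratio. Erythroid-like cells, the circulating red blood cells, were at 0.839 and 0.452 CPM. The order of the classes was the same in both libraries. In Control the endothelial-like level and that of cluster 9 had overlapping intervals, as had the mesenchymal-like and cardiomyocyte-like levels, while in H2CKO no 2 neighbours overlapped. Relative to the median ratio of the cardiomyocyte-, mesenchymal- and epicardial-like classes, the endothelial-like ratio of Dlk1 stood at -2.11. That median, 0.07, took in the cardiomyocyte- and mesenchymal-like ratios of Dlk1, although both were below the minimum. Against epicardial-like cells, the sole reference class in which Dlk1 met the minimum, the difference was -2.18. Of all genes tested, 1.47% were past 2-fold lower in endothelial-like cells and also at least 1 below their median in the reference classes. Dlk1 was the 1 member among them. Ratios below the minimum were not left out of these medians, so the share and the Dlk1 call rest partly on them.

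The share of endothelial-like cells with a Dlk1 UMI was 22.1% in Control (exact binomial interval 18.1 to 26.6) and 5.74% in H2CKO (4.19 to 7.66), at median depths of 12780 and 10257 UMIs. After every cell was thinned to 5000 UMIs, the shares were 14.01% of 364 cells and 3.47% of 691 cells. In erythroid-like cells, taken as a rough guide to the level that free RNA can give, 1.58% of Control cells and 0.621% of H2CKO cells held a Dlk1 UMI. Their median depths were 18380 and 13238 UMIs. Both endothelial-like shares were above those. White-blood-like cells (73 Control, 104 H2CKO) had more Dlk1 than erythroid-like cells, at 31.9 CPM in Control and 34.6 CPM in H2CKO. The latter was above the 14.6 CPM of H2CKO endothelial-like cells. The part of free RNA in any of these levels was not tested.

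A minority of cells carried the transcript. In Control, 299 of 384 endothelial-like cells had no Dlk1 UMI, 29 had 1, 23 had 2 to 4 and 33 had 5 or more, up to 31 in a single cell. In H2CKO, 706 of 749 had none, 25 had 1, 11 had 2 to 4 and 7 had 5 or more. The 20 cells highest in Dlk1 held 64.1% of its UMIs in Control and 83.3% in H2CKO, and 1 H2CKO cell alone held 41 UMIs. Without that cell and the highest Control cell, the log2 ratio was -2.32.

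**Figure D1:**
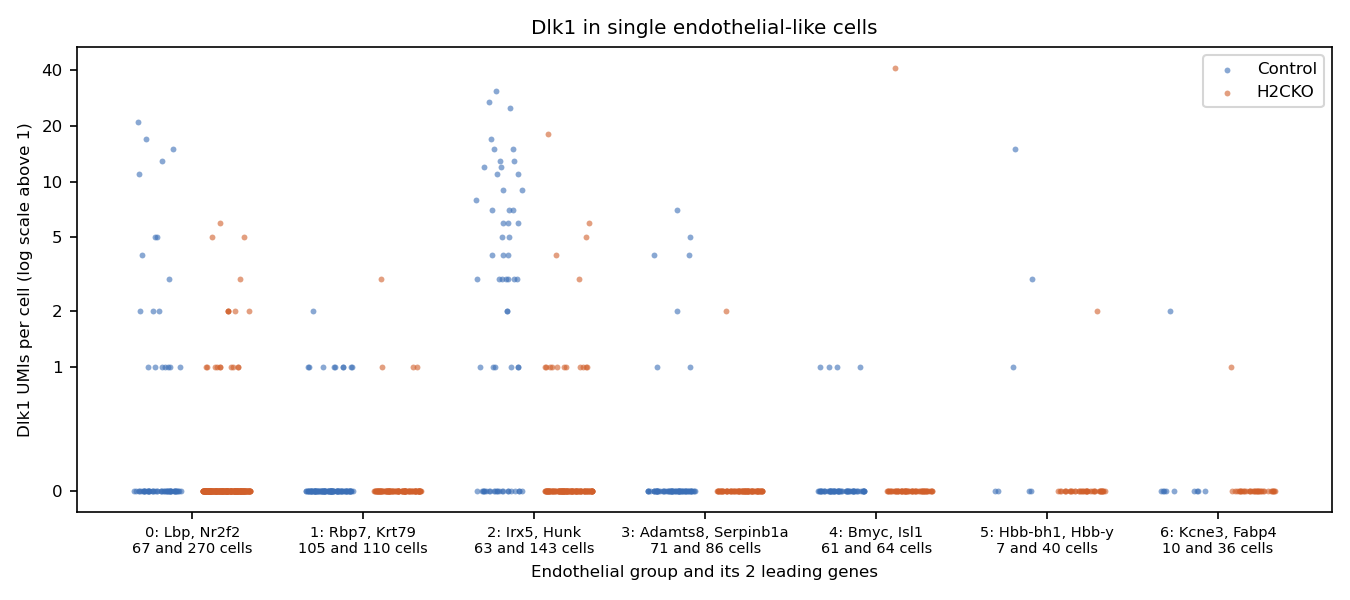
Dlk1 UMIs per endothelial-like cell (vertical axis, log scale above 1) in the 7 endothelial groups, each named by its 2 leading genes with its Control and H2CKO cell numbers; every point is 1 cell, blue for Control and orange for H2CKO. Control cells with 5 or more UMIs gather in groups 2 and 0, and 1 H2CKO cell with 41 UMIs stands alone in group 4.

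The endothelial-like cells were split further into 7 groups, again without the members. Groups 1, 3 and 4 were rich in Klf2, a transcription factor known to respond to blood flow, at 1881 to 2443 CPM, and the others had 361 to 543 CPM. Dlk1 in Control was concentrated in group 2, led by Irx5, Hunk, Tgfbr3 and Npr3, at 260 CPM (320 UMIs in 63 cells), and in group 0, led by Lbp, Nr2f2 and Hmcn1, at 149 CPM (107 UMIs in 67 cells). The same groups in H2CKO were at 20.04 CPM (47 UMIs in 143 cells) and 15.2 CPM (39 UMIs in 270 cells). Control was therefore 12.9-fold higher in group 2 (interval 9.51 to 18.0) and 9.80-fold higher in group 0 (6.74 to 14.5).

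The Klf2-rich groups held little Dlk1 in either library apart from the single cell named above. Group 1 was at 6.66 CPM in Control and 5.80 CPM in H2CKO, and group 3 at 13.99 and 1.36 CPM, the last from 2 UMIs. In group 4 Control had 5.36 CPM from 4 UMIs and H2CKO had 74.4 CPM, all 41 UMIs from that 1 cell, so the level there rests on it. Group 5 was led by haemoglobin genes, with 32.8% of its UMIs from haemoglobin, and held 7 Control cells with 19 Dlk1 UMIs (101 CPM) and 40 H2CKO cells with 2 (2.25 CPM); 15 of the 19 came from 1 cell. Group 6, led by Kcne3, Fabp4 and Igfbp3, held 10 and 36 cells with 2 and 1 Dlk1 UMIs.

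The groups took different shares of the 2 libraries. Groups 1, 3 and 4 held 27.3%, 18.5% and 15.9% of Control endothelial-like cells and 14.7%, 11.48% and 8.54% of H2CKO ones, while groups 0 and 2, the groups with Dlk1, held 17.4% and 16.4% of Control and 36.0% and 19.1% of H2CKO. Cells within a group also differed: in group 0, Npr3, an endocardial receptor gene, was at 413 CPM in Control and 88.8 CPM in H2CKO, and Cldn5, a gene of endothelial junctions, at 4.17 and 128 CPM. The part of such differences in the Dlk1 ratio was not tested.

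Dlk1 went with Npr3 in Control. Control cells with an Npr3 UMI had 115 CPM of Dlk1 (212 cells) and those without had 6.40 CPM (172 cells), at median depths of 15371 and 10297 UMIs. In H2CKO the levels were 10.97 CPM in 284 cells with an Npr3 UMI and 17.7 CPM in 465 cells without, or 9.65 CPM in the latter without the cell of 41 UMIs. Among cells with an Npr3 UMI the log2 genotype ratio was -2.91. H2CKO cells with a GFP UMI, the mark of Cre activity, had 9.58 CPM of Dlk1 (528 cells) and those without one had 29.5 CPM (221 cells), or 12.3 CPM without that same cell.

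Epicardial markers did not follow Dlk1 in a single way in the endothelial-like class. The 12 epicardial markers summed to 90.9 CPM in Control and 32.5 CPM in H2CKO endothelial-like cells, none at 0, and to 179 CPM in Control cells with a Dlk1 UMI against 53.9 CPM in Control cells without. In cells with no epicardial marker UMI (237 Control, 572 H2CKO) Dlk1 was at 116 and 18.5 CPM, a log2 ratio of -2.37. Both levels were above those of the whole class, 75.6 CPM in Control and 14.6 CPM in H2CKO. The endothelial markers summed to 5301 CPM in Control cells with a Dlk1 UMI and 5391 CPM in those without. Mesenchymal markers summed to 2476 CPM in Control and 502 CPM in H2CKO endothelial-like cells, and their part in the ratio was not tested.

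RefSeq windows of 250 bases upstream of a gene's start (GRCm38.p6) were at hand for 8 of the 10 members, in 11 windows; Cdkn1c and Peg10 had none. HAND2 and other basic helix-loop-helix factors bind E-boxes, searched here as CANNTG on both strands, and 66.2% of the 32851 windows in the table held that pattern. The window upstream of Dlk1, shown because Dlk1 leads the endothelial comparison, lies on chromosome 12 (GRCm38.p6, chr12:109452573-109452822, plus strand), just before the gene (109452823-109463336). It reads 5′ to 3′:
Dlk1: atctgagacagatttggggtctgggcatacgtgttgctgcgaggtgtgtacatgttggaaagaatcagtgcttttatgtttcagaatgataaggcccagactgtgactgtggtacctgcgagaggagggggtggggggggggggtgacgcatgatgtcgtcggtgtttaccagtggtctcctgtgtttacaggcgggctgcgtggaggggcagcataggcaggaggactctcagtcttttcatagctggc
It held neither an E-box nor the PLAGL1 motif searched below, which says only that these letters are not in this window. E-boxes were found in 6 of the 11 windows of members, which belong to Mest, Grb10, Plagl1 and Phlda2. The windows are not all distinct, since some of Mest overlap and share an E-box.

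Peg3, which encodes a zinc-finger protein read from the paternal copy, was lower in H2CKO in every class. In endothelial-like cells it was at 517 CPM in Control and 227 CPM in H2CKO, a log2 ratio of -1.17. Cardiomyocyte-like cells were at 379 and 145 CPM (-1.36), cluster 9 at 522 and 192 CPM (-1.42), and erythroid-like cells at 43.4 and 15.7 CPM (-1.23). The difference was smaller in the classes where Peg3 was highest, epicardial-like cells at 2072 and 1112 CPM (-0.89) and mesenchymal-like cells at 873 and 611 CPM (-0.51). Peg3 was the 10th lowest of 5507 genes tested in cardiomyocyte-like cells and the 12th lowest of 5894 in cluster 9. By cells, a Peg3 UMI was found in 90.4% of endothelial-like cells in Control and in 71.8% in H2CKO, and 75.0% and 55.3% did so after thinning; in erythroid-like cells the thinned shares were 19.2% and 7.29%.

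Plagl1 encodes a zinc-finger transcription factor known to regulate other imprinted genes, and its binding motif was searched as GGGGCCCC, a sequence that is its own reverse complement. It was present in 0.889% of all windows and in 1 window of a member, that of Peg3 on chromosome 7 (chr7:6730420-6730669, minus strand), shown for that match with the motif in capitals:
Peg3: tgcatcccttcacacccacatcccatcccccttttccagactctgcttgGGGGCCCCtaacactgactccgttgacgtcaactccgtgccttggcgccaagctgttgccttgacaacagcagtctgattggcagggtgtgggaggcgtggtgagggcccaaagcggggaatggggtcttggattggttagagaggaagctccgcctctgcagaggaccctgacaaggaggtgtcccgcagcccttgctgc
A match is a description of the letters and shows no binding.

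Grb10, which encodes an adaptor that binds the insulin and IGF1 receptors and restrains their signalling, was also lower in H2CKO in all 6 classes. It was at 424 CPM in Control and 198 CPM in H2CKO endothelial-like cells (-1.08), at 608 and 395 CPM in cardiomyocyte-like cells (-0.62) and at 547 and 275 CPM in mesenchymal-like cells (-0.98). Epicardial-like cells were at 604 and 303 CPM (-0.98), cluster 9 at 720 and 386 CPM (-0.89) and erythroid-like cells at 46.4 and 19.5 CPM (-1.07). The ratios were similar across classes, and relative to the median gene they ran from -0.46 to -0.89. A log2 ratio of -0.5 or below in all 6 classes was found for 7.67% of the 1812 genes tested in all of them, and Grb10 and Peg3 were the members among these. Grb10 spans 108 kb, and across genes a longer span went with a lower ratio in every class, at Spearman's rho of -0.47 to -0.56, a description across genes, which are not independent. With that trend taken out the endothelial-like ratio of Grb10 was -0.72.

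Of the 9 members that met the minimum in endothelial-like cells, Dlk1, Peg3 and Grb10 were past 2-fold, all 3 lower in H2CKO; of all genes tested there, 7.59% were past 2-fold lower and 0.855% higher. In cardiomyocyte-like cells Peg3 alone was past 2-fold lower of 7 members (0.508% of all genes lower, 0.218% higher), in cluster 9 Peg3 of 9 (1.66%, 0.153%), in mesenchymal-like cells Peg10 of 8 (3.59%, 0.429%) and in epicardial-like cells Plagl1 of 9 (5.37%, 0.523%). In erythroid-like cells these were Peg3 and Grb10 of 3 (7.53%, 0.349%). No member was past 2-fold higher in any class. The members' median log2 ratio was -0.26 in endothelial-like cells, near the -0.28 of all genes, and -0.38, -0.38 and -0.56 in cardiomyocyte-, mesenchymal- and epicardial-like cells, each below the median of all genes given above. Since members passed the minimum through the library where they were higher, these counts are descriptions. Centred on the median gene, Dlk1 alone stayed past 2-fold in endothelial-like cells, and the genes past 2-fold there were 127 higher and 163 lower, where totals gave 56 higher and 497 lower.

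**Figure D2:**
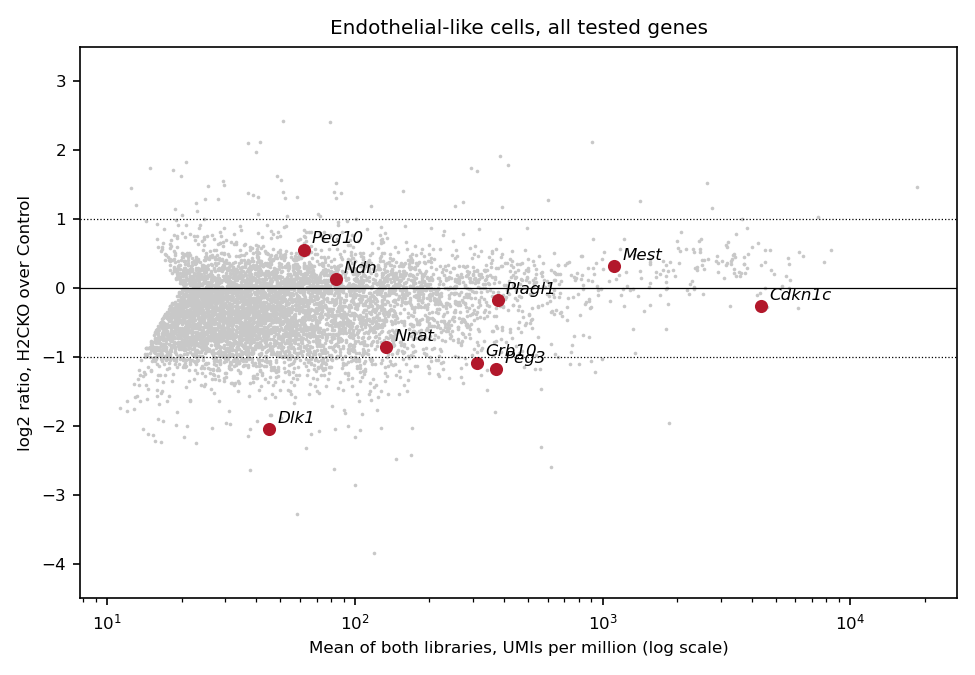
Log2 ratio, H2CKO over Control (vertical axis, CPM plus 5), against the mean level of both libraries (horizontal axis, log scale) for genes tested in endothelial-like cells, grey, with the 9 tested members in red; dotted lines mark 2-fold, and 2 of 6547 genes lie outside the vertical range. Dlk1, Peg3 and Grb10 lie below the lower dotted line, while Peg10, Mest and Ndn lie above 0.

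**Figure D3:**
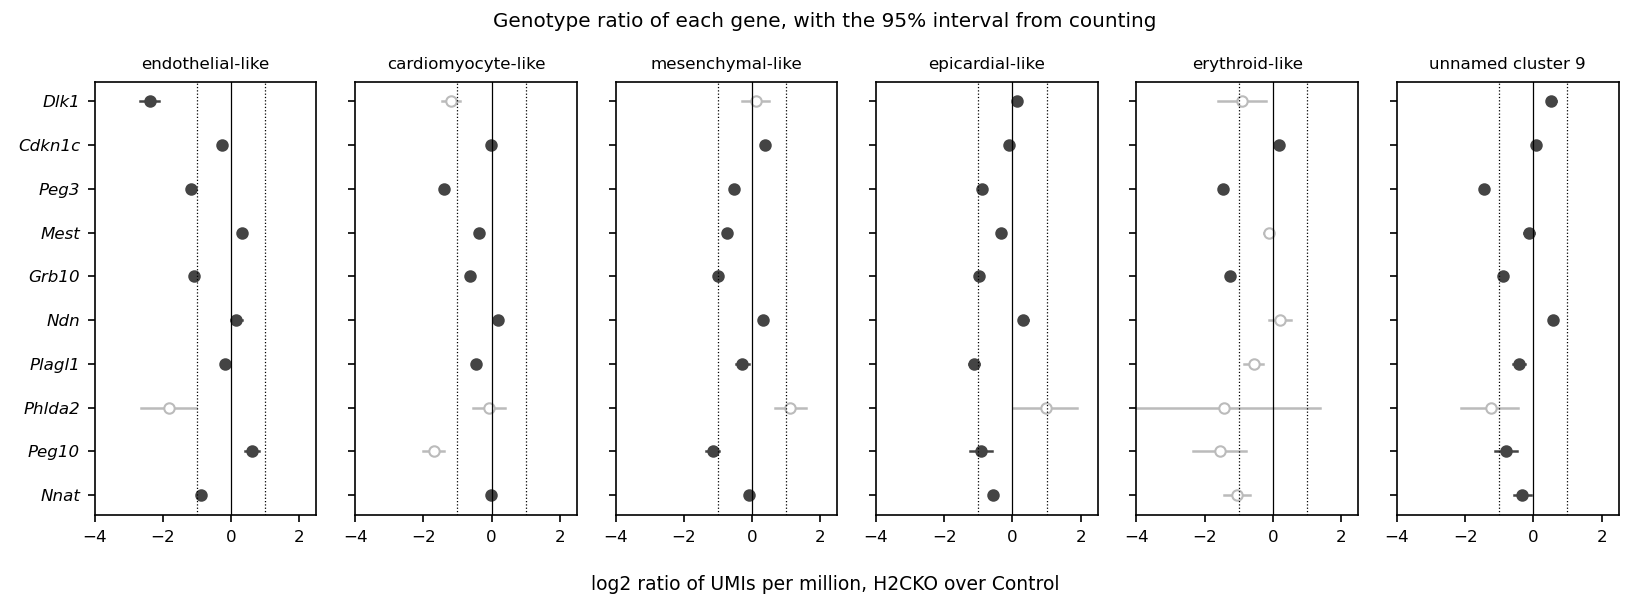
Log2 ratio of CPM, H2CKO over Control, of each member in 6 classes, here without the added 5, so that low genes lie farther from 0; bars are 95% exact intervals from counting, dotted lines mark 2-fold, and open grey points are below the minimum level. Dlk1 is far below 0 in endothelial-like cells and above 0 in epicardial-like cells and cluster 9, and Peg3 and Grb10 are below 0 in all 6 classes.

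Nnat, which encodes neuronatin, a small protein of the endoplasmic reticulum membrane, was highest in epicardial-like cells, at 407 CPM in Control and 275 CPM in H2CKO (-0.56). Endothelial-like cells were at 173 and 94.1 CPM (-0.85), short of 2-fold. Mesenchymal-like cells, at 248 and 234 CPM (-0.08), and cardiomyocyte-like cells, at 20.8 and 20.7 CPM (-0.01), were close between the libraries. The endothelial-like ratio was past 2-fold under 4 of 18 alternatives, at -1.31 under a stricter cell filter, and it was -0.49 with the endothelial groups weighted alike. Within these cells group 0 had 191 and 71.3 CPM and group 2 had 147 and 58.9 CPM. Groups 3 and 4 were also lower in H2CKO, at 193 and 138 CPM and at 228 and 174 CPM, while group 1 had 169 and 210 CPM. The share of endothelial-like cells with a Nnat UMI was 82.3% and 52.3%, and 59.1% and 32.3% after thinning, beside thinned shares of 1.17% and 0.644% in erythroid-like cells.

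Cdkn1c encodes p57, an inhibitor of cyclin-dependent kinases that holds back cell division. It was highest in endothelial-like cells in both libraries, at 4746 CPM in Control and 3968 CPM in H2CKO (-0.26, 0.03 relative to the median gene, and -1.30 under a stricter cell filter). The other classes in falling order were epicardial-like (2232 and 2089 CPM), cardiomyocyte-like (1008 and 1004 CPM), cluster 9 (852 and 890.3 CPM), mesenchymal-like (334 and 435 CPM) and erythroid-like (25.9 and 29.1 CPM), the same order in both. The whole-class ratio covered unequal groups. Group 2 had 12380 CPM in Control and 5834 CPM in H2CKO (-1.08), group 0 had 7424 and 5319 CPM, and the Klf2-rich group 3 had 929 and 1470 CPM (0.66). Group 6 had 210 CPM from 10 Control cells and 1774 CPM from 36 H2CKO cells.

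Plagl1 was likewise highest in endothelial-like cells, at 399.8 CPM in Control and 355 CPM in H2CKO (-0.17, 0.11 relative to the median gene, and -1.07 under the stricter cell filter). In epicardial-like cells it was at 245 and 113 CPM (-1.09), the 1 class in which it was past 2-fold. That call held under 7 of 14 alternatives; Plagl1 spans 71.2 kb, and with the trend on span removed the ratio was -0.72. Cardiomyocyte-like cells were at 185 and 135 CPM (-0.44). In the endothelial groups it went the way of Cdkn1c in group 2, at 942 and 504 CPM, in group 0, at 683 and 494 CPM, and in group 3, at 101 and 153 CPM. It did not in group 4, where Plagl1 was at 226 and 321 CPM and Cdkn1c at 1654 and 1487 CPM, in group 1, where Plagl1 was at 304 and 220 CPM and Cdkn1c at 3883 and 3979 CPM, or in group 6, where Plagl1 was at 205 and 174 CPM. Over the 12 profiles made by 6 classes and 2 libraries, the log2 levels of Plagl1 had a Pearson r of 0.96 with Cdkn1c and of 0.95 with Mest, and Nnat had 0.91 with Peg3. The profiles share their libraries and depth, erythroid-like cells are low for every member, and the values are descriptions.

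Mest, read from the paternal copy and encoding a protein of the alpha/beta-hydrolase fold, was highest in endothelial-like cells in both libraries, at 985 CPM in Control and 1235 CPM in H2CKO (0.33). It was lower in H2CKO in mesenchymal-like cells, at 171 and 104 CPM (-0.70), in cardiomyocyte-like cells, at 874 and 672 CPM (-0.38), and in epicardial-like cells, at 815 and 644 CPM (-0.34). The cardiomyocyte-like ratio of Mest depended on the setting, at -1.97 under a stricter cell filter and 0.27 with unbalanced neighbours. Levels differed between the endothelial groups. Mest was at 1808 CPM in Control and 1576 CPM in H2CKO in group 2 and at 1365 and 1531 CPM in group 0, and at 425 and 459 CPM in group 3 and 251 and 468 CPM in group 4. With the 5 groups of at least 50 cells in each library weighted alike the log2 ratio was 0.09, and it was -0.14 under a stricter cell filter.

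Peg10, a gene derived from a retrotransposon and needed for placental development, lay above 0 in endothelial-like cells and below 0 in mesenchymal-like cells, epicardial-like cells and cluster 9. It was at 49.2 CPM (317 UMIs) in Control and 75.0 CPM (710 UMIs) in H2CKO endothelial-like cells (0.56), at 53.8 and 24.3 CPM in mesenchymal-like cells (-1.01), at 46.7 and 24.8 CPM in epicardial-like cells (-0.80) and at 27.1 and 15.5 CPM in cluster 9 (-0.64). In Control its mesenchymal-, endothelial- and epicardial-like levels had overlapping intervals, and in H2CKO endothelial-like cells stood 3.02-fold above the next class. Groups 0 and 2 had 61.2 and 77.9 CPM in Control and 109 and 108 CPM in H2CKO. The Klf2-rich group 1 had 35.7 and 17.4 CPM, and group 6 had 242 CPM from 10 cells and 105 CPM from 36 cells. Peg10 was the same side of 0 in endothelial-like cells under all 18 alternatives, at 0.14 to 0.84.

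**Figure D4:**
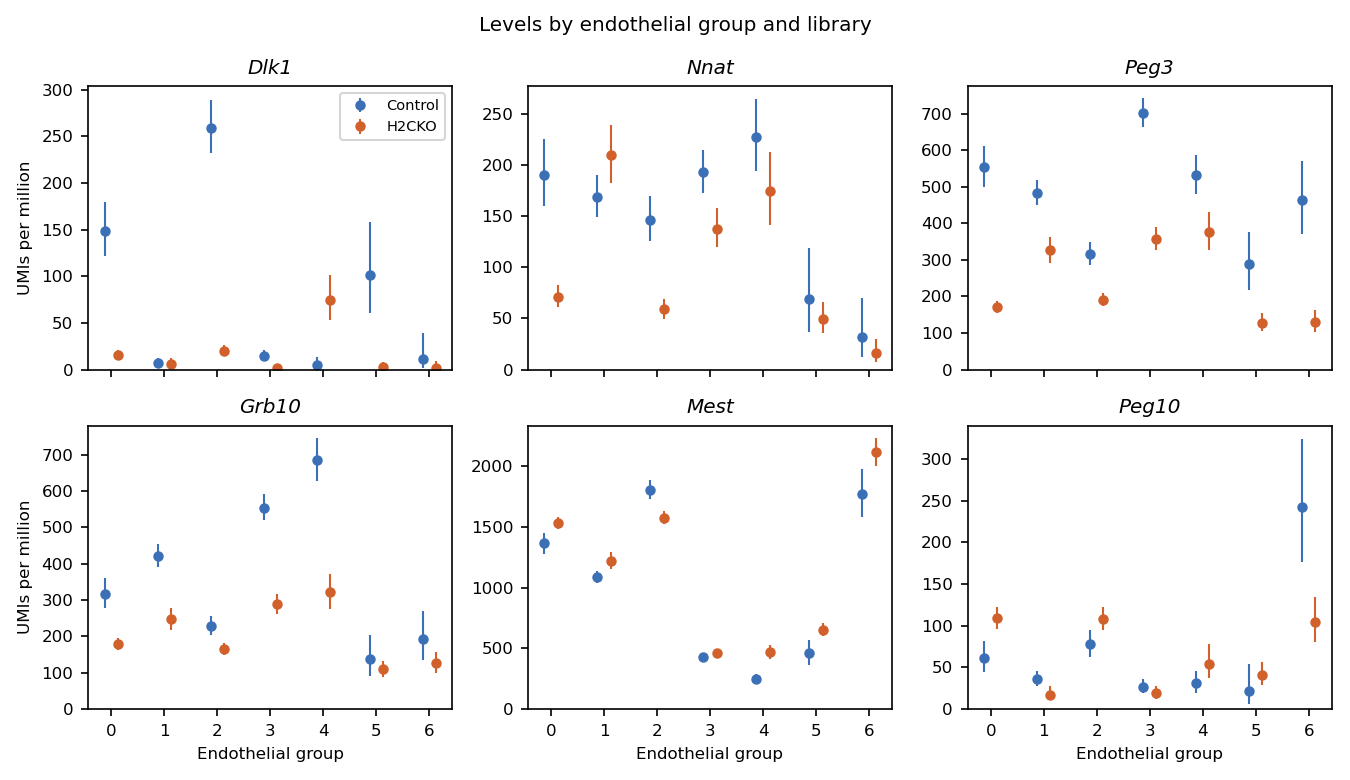
Levels in CPM of 6 members (vertical axes, from 0) in the 7 endothelial groups (horizontal axes), blue for Control and orange for H2CKO, with 95% exact Poisson intervals. The gaps in CPM of Dlk1 and Nnat are widest in groups 0 and 2, and Peg3 and Grb10 are lower in H2CKO in all 7 groups. Mest is lower in groups 3, 4 and 5 than in the other groups.

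Ndn encodes necdin, a protein of the MAGE family that restrains cell growth. It was somewhat higher in H2CKO in 6 of 6 classes, at 79.5 and 87.8 CPM in endothelial-like cells (0.13), 71.8 and 82.4 CPM in cardiomyocyte-like cells (0.19), 123 and 154 CPM in mesenchymal-like cells (0.32), 137 and 170 CPM in epicardial-like cells (0.30), 111 and 166 CPM in cluster 9 (0.57) and 2.48 and 2.86 CPM in erythroid-like cells. The endothelial-like intervals overlapped, at 72.8 to 86.7 CPM in Control and 81.9 to 93.9 CPM in H2CKO, and the erythroid-like levels were below the minimum. White-blood-like cells, outside these classes, went the other way at 19.6 and 18.2 CPM, from 27 and 31 UMIs. No value was past 2-fold. Once the trend with gene span was removed the ratio turned to -0.22 in endothelial-like, -0.05 in epicardial-like and -0.01 in mesenchymal-like cells, and with unbalanced neighbours it turned to -0.08 in cardiomyocyte-like cells. Phlda2, which encodes a small pleckstrin-homology protein known for limiting growth of the placenta, stayed below the minimum of 20 CPM in every class. Its highest levels were 7.46 CPM in Control endothelial-like cells (48 UMIs, against 2.11 CPM from 20 UMIs in H2CKO) and 7.42 CPM in H2CKO mesenchymal-like cells (84 UMIs, against 3.40 CPM from 78 UMIs in Control). Shares of cells with a Phlda2 UMI were 7.81% and 2.003% in endothelial-like cells and 0.147% and 0.0401% in erythroid-like cells.

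**Figure D5:**
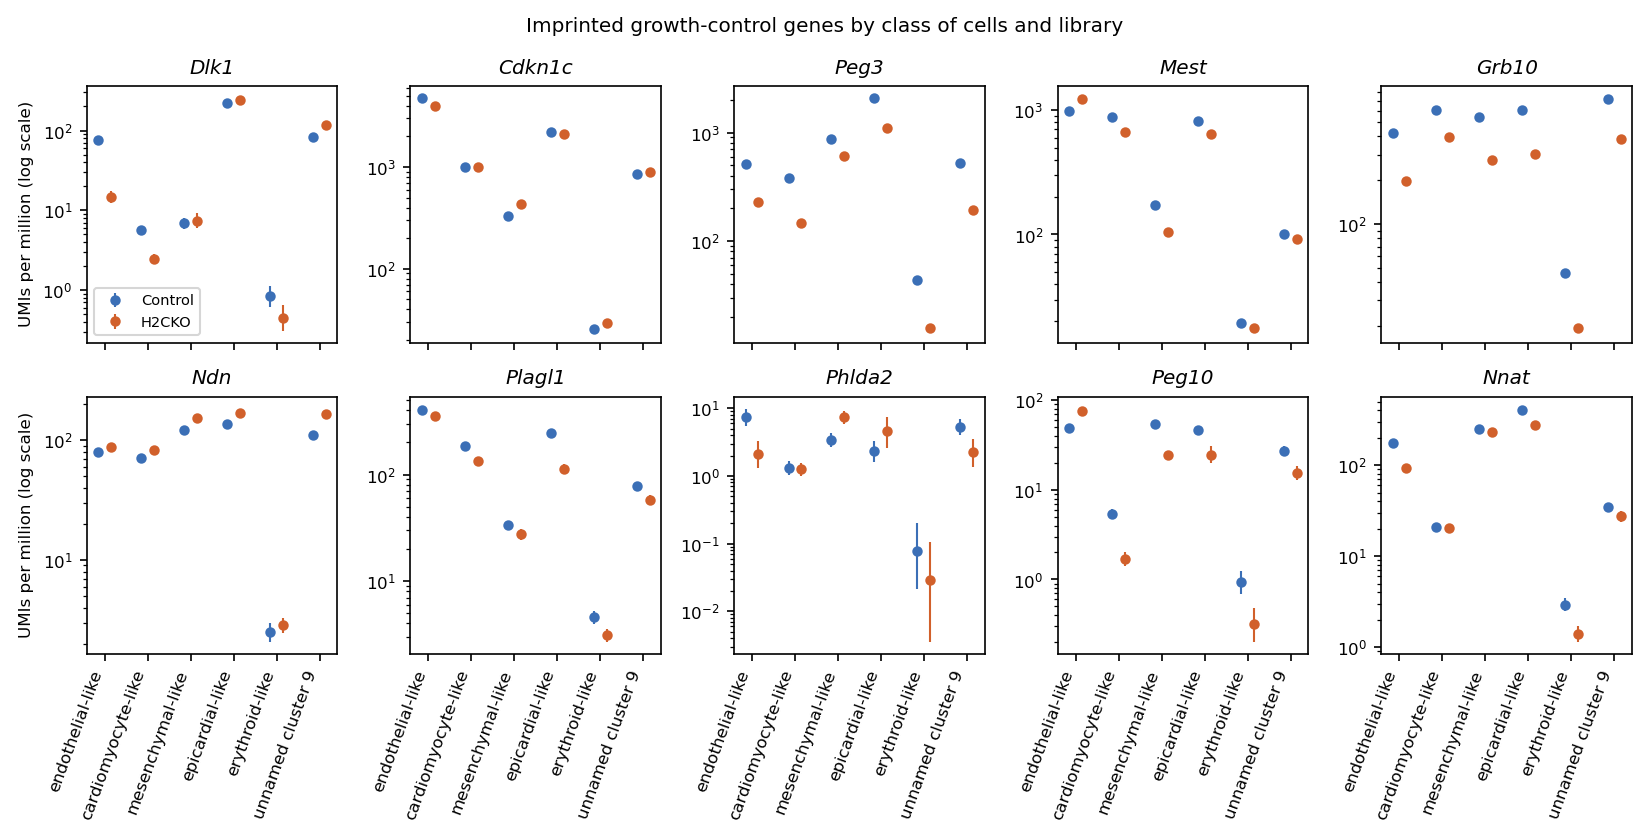
Level of each of the 10 members in CPM (vertical axes, log scale) in 6 classes of cells, blue for Control and orange for H2CKO, with 95% exact Poisson intervals, most of them smaller than the points. Dlk1, Peg3, Nnat and Ndn are highest in epicardial-like cells in both libraries, though in H2CKO the Ndn interval overlaps that of cluster 9. Cdkn1c, Plagl1 and Mest are highest in endothelial-like cells, and erythroid-like cells are the lowest class for all 10.

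The 5 genes whose log2 levels followed those of Dlk1 most closely over the same 12 profiles, of 8032 genes, were Wnt2 (Pearson r 0.96), Nrp2 (0.92), Aplp1 (0.90), Cacnb3 (0.90) and Ctsf (0.89). All 5 were highest in epicardial-like cells, except that Nrp2 in H2CKO was at 24.4 CPM in cluster 9 and 19.1 CPM in epicardial-like cells. Wnt2 was at 16.5 CPM in Control and 22.5 CPM in H2CKO epicardial-like cells and at 11.3 and 6.23 CPM in endothelial-like cells. Aplp1 was at 191 and 131 CPM in epicardial-like cells and at 17.1 and 7.18 CPM in endothelial-like cells. None of the 5 reached 20 CPM in endothelial-like cells.

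A list of 63 other genes held imprinted genes and neighbours within imprinted domains. Of these, 54 were among the features, and 24 of the 54 met the minimum in endothelial-like cells. Lower past 2-fold were Igf2, Igf2r, Gab1, Dcn and Slc38a4, and Gatm was higher, beside the 7.59% and 0.855% of all genes; the median was -0.20. Igf2, the growth factor that signals through the receptors GRB10 binds, was past 2-fold lower in all 6 classes, from 2960 to 761 CPM in endothelial-like cells (-1.95), which 0.497% of the 1812 genes tested in all were. Igf2r, the receptor that clears IGF2, went from 942 to 186 CPM (-2.31) there and was at -1.31 in mesenchymal-like and -1.01 in epicardial-like cells.

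The others were less abundant. Gab1, a docking protein for receptor kinases, was at 31.2 and 11.8 CPM (-1.11), and Dcn, the matrix proteoglycan decorin, at 22.5 and 3.17 CPM (-1.75). Dcn is also among the 15 mesenchymal markers, which summed to 2476 CPM in Control and 502 CPM in H2CKO endothelial-like cells. Slc38a4, an amino acid transporter, was at 71.1 and 26.6 CPM (-1.27), and Gatm, an enzyme of creatine synthesis, at 18.3 and 55.8 CPM (1.38). Zim1, a zinc-finger gene next to Peg3, was past 2-fold lower in cardiomyocyte-like cells, at 31.3 and 9.97 CPM (-1.28), in epicardial-like cells, at 66.7 and 27.9 CPM (-1.12), and in cluster 9, at 38.7 and 12.4 CPM (-1.33). In endothelial-like cells Zim1 was at 4.35 and 1.80 CPM, under the minimum. Haemoglobin made up 1.86% of UMIs in Control and 4.62% in H2CKO endothelial-like cells. With the erythroid profile taken off in proportion, as 2.81% and 6.73% of UMIs, the Dlk1 ratio was -2.01. That profile held only 0.839 CPM of Dlk1 in Control and 0.452 CPM in H2CKO, so taking it off could hardly move the ratio. Free Dlk1 RNA from other classes was not tested. The share taken off depends on the profile: that of barcodes failing the cell filter put it at 43.9% and 81.0%. The erythroid profile was taken after both were seen.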

How the data were processed

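Each library came as raw UMI counts by gene and barcode, as deposited by the authors; Cell Ranger 5.0.1, Seurat 4 and build GRCm38.p6 are named in the submitters' processing notes, with no role given. The deposited embedding coordinates, a score without a unit, only marked a subset of cells for 1 alternative. Barcodes numbered 14114 for Control, with 195825720 UMIs in total, and 13885 for H2CKO, with 201477256. Of the features, 22285 matched a symbol by Ensembl ID; gene coordinates and spans came from GENCODE vM21 on GRCm38.p6.

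Cells needed 500 detected genes or more and a mitochondrial share of 10% or less. Scrublet (scanpy 1.11.5, expected rate 6%) marked 920 Control doublets automatically and 0 in H2CKO, where the top 5% of scores (608 cells) were left out instead. Cells were joined to 15 neighbours in each library over 30 principal components of 2000 variable genes. These left out members, the other listed imprinted and neighbouring genes, haemoglobin, mitochondrial and sex-linked genes, Hand2 and reporters. The cells were clustered with Leiden (leidenalg 0.10.2, resolution 1) and named from 13 marker lists. Classes with at least 100 cells in each library were described, and UMIs were summed per class and library.

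The members and lists were chosen with earlier results of these data known. Genes named besides the members were the 5 genes most like Dlk1 and some from the list of imprinted genes and genes near them. From that list, those past 2-fold in endothelial-like cells or in at least 2 of the endothelial-, cardiomyocyte-, mesenchymal- and epicardial-like classes were named. Intervals are exact (scipy 1.17.1, 95%: Poisson for levels, Clopper-Pearson for shares, conditional for ratios of counts) and cover counting error only. The scripts were tested on simulated data. The alternatives comprised 14 planned ones and 5 chosen after seeing the data; among the latter are leaving out the cell highest in Dlk1 in each library, cells without an epicardial marker UMI, cells with an Npr3 UMI and equal weight for groups.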

Additional observations from a re-analysis of the deposited data

Results flagged for a closer look

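With 1 library per genotype the differences between classes below were not tested. Each was listed because the endothelial-like cells and another class lay on opposite sides of 0 beyond their counting intervals and at least 2-fold apart in the log2 ratio H2CKO over Control.

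For Dlk1 the endothelial-like ratio of -2.04 stood against 0.14 in epicardial-like cells, a difference of -2.18, and against 0.50 in cluster 9, a difference of -2.54. Mest was at 0.33 in endothelial-like and -0.70 in mesenchymal-like cells, a difference of 1.02; under the stricter cell filter the endothelial-like ratio was -0.14. Peg10 was at 0.56 in endothelial-like cells, against -0.80 in epicardial-like cells (difference 1.36), -1.01 in mesenchymal-like cells (1.57) and -0.64 in cluster 9 (1.204).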

How the results depend on the processing

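No paired analysis was possible because each genotype has 1 library and the labels carry no replicate numbers. Ratios of members in the endothelial-, cardiomyocyte-, mesenchymal- and epicardial-like classes were taken again under 19 settings, not all of which covered every class. Endothelial-like cells had 18 of them, cardiomyocyte-like cells 15, and mesenchymal- and epicardial-like cells 14 each. Of 487 such values, leaving out Dlk1 in endothelial-like cells, 292 moved by less than their counting interval and 195 by more. No member past 2-fold changed sign in these classes. The cause of each change was not tested.

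The Dlk1 log2 ratio in endothelial-like cells (-2.04) was -1.76 centred on the median gene, -4.04 under a stricter cell filter and -1.76 without doublet removal. In the cells of the deposited embedding it was -2.88, and with each cell named by its own markers -2.47. Without epicardial marker UMIs it was -2.37, with an Npr3 UMI -2.91 and with groups weighted alike -1.70. The last value rests partly on 1 cell, since group 4 weighed as much as each other group taken. Its H2CKO level of 74.4 CPM came entirely from the cell of 41 UMIs. The stricter filter (1500 genes or more, a mitochondrial share of 5% or less) gave 221 CPM in Control and 8.74 CPM in H2CKO; its endothelial-like class left out an unnamed cluster with Klf2 among its leading genes.

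The share of all genes past 2-fold under the stricter filter is not given here, so counts of members under it cannot be read against a background. The count of members past 2-fold in endothelial-like cells (3) was 1 when centred, 5 under the stricter filter (Dlk1, Cdkn1c, Peg3, Plagl1 and Nnat) and 1 with groups weighted alike. In cardiomyocyte-like cells (1) it was 2, with Mest, under the stricter filter. In mesenchymal-like cells (1) it was 0 when centred, without haemoglobin and mitochondrial UMIs, with a minimum of 100 CPM, under the stricter filter, thinned, with unbalanced neighbours, in the embedding, by own markers and with free RNA taken off. In epicardial-like cells (1) it was 0 when centred, without doublet removal, thinned, with unbalanced neighbours, in the embedding and by own markers, and with the span trend removed it was Peg10 (-1.02) in place of Plagl1.

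Over all genes in endothelial-like cells, a pseudocount of 1 CPM gave 761 lower and 68 higher against 497 and 56, a minimum of 100 CPM 165 and 24, and equal group weights 245 and 43. Centred counts were 17 lower and 19 higher in cardiomyocyte-like cells (28 and 12 in the main setting), 53 and 55 in mesenchymal-like cells (234 and 28) and 102 and 67 in epicardial-like cells (339 and 33). Centring also turned the endothelial-like ratio of Cdkn1c (-0.26) to 0.03 and of Plagl1 (-0.17) to 0.11, the cardiomyocyte-like ratio of Cdkn1c (-0.01) to 0.15 and the mesenchymal-like ratio of Nnat (-0.08) to 0.16.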

Other observations

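White-blood-like cells, 73 in Control and 104 in H2CKO, were too few in Control for the comparisons above. Dlk1 was at 31.9 CPM from 44 UMIs in Control and 34.6 CPM from 59 UMIs in H2CKO, and Peg3 at 72.5 CPM from 100 UMIs and 22.9 CPM from 39 UMIs. Cdkn1c was at 126 CPM from 174 UMIs and 214 CPM from 364 UMIs.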
